A study of Mus musculus with 6 samples.

Results

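The 40 genes described here drive the cell cycle and DNA replication. They were taken by name, for their role, from the 23473 genes that the deposited lung RNA-seq table gives as RefSeq transcripts, and each is represented by its transcript with the largest total count. All 40 were found, 30 of them with 1 RefSeq transcript and 10 with more, and 39 had enough counts for a test. Lung tissue of wild type (WT) mice was compared with that of TSPO knockout (KO) mice, which lack TSPO, a protein of the outer mitochondrial membrane. Both groups are labelled C57BL/6, and the floxed and Cre lines behind the knockout were C57BL/6J. The mice were 6 to 8 weeks old, with no treatment named in the labels. In KO mice the loxP-flanked exons 2 and 3 of Tspo had been removed with a Protamine-Cre transgene, whose sperm-specific promoter leads to a deletion in every cell of the offspring. RNA of 3 mice was pooled for each library, which gave 3 WT and 3 KO libraries from 9 mice per genotype. Errors and p-values therefore describe pools, and the variation among single animals was not measured.

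A cell that divides first loads the MCM helicase onto its DNA in G1, then copies the DNA in S phase with the help of PCNA and of enzymes that supply nucleotides, and separates the copies in mitosis under the control of cyclin B with CDK1, the Aurora and Polo kinases and the spindle checkpoint. Transcripts of the replication genes rise around the entry into S phase and those of the mitotic genes in G2 and mitosis. Most cells of the adult lung rest outside the cycle, and the few that divide include macrophages, endothelial cells, lymphocytes and epithelial progenitors. In whole tissue, fewer cells of a type and less RNA per cell cannot be told apart.

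The libraries held 9617086 to 11942318 counts over the 23473 genes, of which the 40 cell cycle genes took 3937 to 6356 counts per library. The level of a gene in a pool is its CPM, its reads per 1e+06 reads of that library with TMM scaling. Transcripts of Tspo fell in the KO libraries, to 19.7 to 21.7 CPM from 153 to 156 CPM in WT (log2 ratio −2.87, SE 0.10), which matches the labels. The lung markers Sftpc and Ager were present in every library, with at least 17669 and 1305 CPM. WT libraries 2 and 3 stood apart in genes outside the 40, with marker lists chosen after earlier results of these data were known. Rn45s, the ribosomal RNA precursor, made up 11.4% of the counts of WT library 3 and 0.224% to 0.427% of those of the others. In WT library 2, markers of tissues outside the lung were raised, with a summed level of 164 CPM for 4 genes of skeletal muscle against 11.4 to 17.1 CPM in the other 5 libraries, and of 103 CPM for 4 genes of stratified epithelium against 8.41 to 15.1 CPM. Pairs of libraries of a genotype differed with a chi-square per degree of freedom of at least 7.60, where sampling alone gives 1, so none was a copy of another.

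Replication and mitotic genes are controlled in part through different promoter elements, and their promoters are shown here as background. A relation of these elements to the levels in any library was not tested. The RefSeq promoter table (GRCm38.p6, the assembly of mm10), with 250 bases before and 50 bases after each start, held 35 promoters for 34 of the 40 genes. They were searched on both strands for TTTGAA (CHR, the cell cycle genes homology region, bound by the MuvB complexes), for CCAAT (the box of the factor NF-Y) and for the E2F spellings TTTGGCGC, TTTCCCGC, TTTGCCGC and TTTCGCGC. The letters TTTGAA stood in 14 of 18 promoters of mitotic genes (77.8%), in 2 of 13 promoters of replication genes (15.4%) and in 12.1% of the 13829 promoters of all tested genes. CCAAT stood in 15 of the 18 mitotic promoters (83.3%) and in 10 of the 13 replication promoters (76.9%), against 36.9% of all. E2F letters stood in 5 of the 13 replication promoters (38.5%) and in 0 of the 18 mitotic promoters, against 3.61% of all. These matches are letters in a window and not measured binding sites. The same search over genes outside the 40 gave 71.1% with TTTGAA in 38 promoters of other mitosis genes and 14.3% in 42 promoters of other replication genes. E2F letters stood in 4 of those 38 promoters of other mitosis genes (10.5%) and in 12 of the 42 of other replication genes (28.6%).

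**Figure D1:**
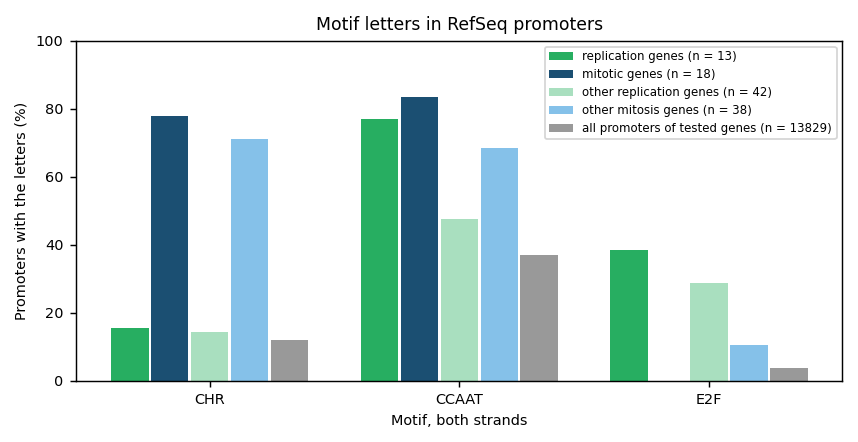
Share of RefSeq promoters (vertical axis, %) that hold the letters of CHR, CCAAT or E2F on either strand, for 5 groups of promoters with the number of promoters in the legend. The CHR bar of the mitotic genes reaches 77.8% and that of the replication genes 15.4%, while for E2F the replication genes reach 38.5% and the mitotic genes 0%.

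The following windows of 30 bases show the CHR letters in capitals in genes of mitosis and of its entry whose values are given below. Each is read 5′ to 3′ on the strand that carries TTTGAA.
Cdc20 (chr4:118437344-118437373, minus strand): agacagttgggtTTTGAAggagccaatgaa
Mki67 (chr7:135716460-135716489, minus strand): ccgccgttttggTTTGAAtcgggcgggctg
Kif11 (chr19:37376351-37376380, minus strand): ccgcgcctcaatTTTGAAaaatggagacga
Plk1 (chr7:122159453-122159482, plus strand): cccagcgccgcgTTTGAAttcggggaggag
Cdk1 (chr10:69352910-69352939, minus strand): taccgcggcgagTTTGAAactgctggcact
Ccnb2 (chr9:70421533-70421562, minus strand): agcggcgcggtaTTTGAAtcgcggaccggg
The window of Cdc20 also holds a CCAAT downstream of the CHR letters. In the 200 bases before the start of Ccnb2 (chr9:70421555-70421754, minus strand), the gene of cyclin B2, the capitals mark a TTTGAA far upstream followed by CCAAT boxes closer to the start.
Ccnb2: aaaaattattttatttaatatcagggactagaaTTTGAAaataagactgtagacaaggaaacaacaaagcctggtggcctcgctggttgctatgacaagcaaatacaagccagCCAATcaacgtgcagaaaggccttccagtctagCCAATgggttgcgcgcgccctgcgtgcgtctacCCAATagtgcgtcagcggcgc
Mcm3 also holds E2F letters, after its start, and is not shown. For the other replication genes that hold them, 1 window each follows, with the E2F letters in capitals.
Mcm5 (chr8:75109345-75109374, plus strand): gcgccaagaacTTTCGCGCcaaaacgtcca
Mcm6 (chr1:128359797-128359826, minus strand): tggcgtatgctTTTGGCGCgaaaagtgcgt
Mcm7 (chr5:138171849-138171878, minus strand): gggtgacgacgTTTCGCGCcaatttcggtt
Cdc6 (chr11:98908002-98908031, minus strand): accccaggcgaTTTCCCGCtctccaccggc
In Mcm5 and Mcm6 a second E2F spelling lies on the other strand and overlaps the first. The letters shown for Mcm7 lie after its start, as in Mcm3, and another match of Mcm7 lies before it.

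The replication genes ranged from the highest to nearly the lowest level of the 40, and most mitotic genes were low. Levels between genes were compared per kilobase of transcript, with lengths taken from GENCODE M21. Pcna, the sliding clamp of the DNA polymerases, was the highest at 57.8 CPM per kb, above 92.1% of tested genes. The MCM genes, which encode the subunits of the replicative helicase, stood at 4.94 (Mcm5) to 10.7 CPM per kb (Mcm7), between the percentiles 33.5 and 54.7. Mki67, the gene of the proliferation antigen Ki-67, had 3.82 CPM per kb at percentile 27.9. Of the other replication genes, Rrm1 stood at percentile 50.8 and Tk1 at 32.9. The remaining ones were lower, with Cdc6 at percentile 4.56, Cdc45 at 13.3, Tyms at 17.3 and Rrm2 at 18.4. Among the mitotic genes, Cdc20, Top2a and Ube2c stood above these remaining ones, at 31.3, 30.1 and 29.1. The median percentile was 40.4 for the 13 replication genes and 13.5 for the tested mitotic genes. The lowest of all was Ttk, the checkpoint kinase MPS1, whose 9, 19 and 12 reads in WT and 7, 11 and 9 reads in KO were too few for a test with all 6 libraries.

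**Figure D2:**
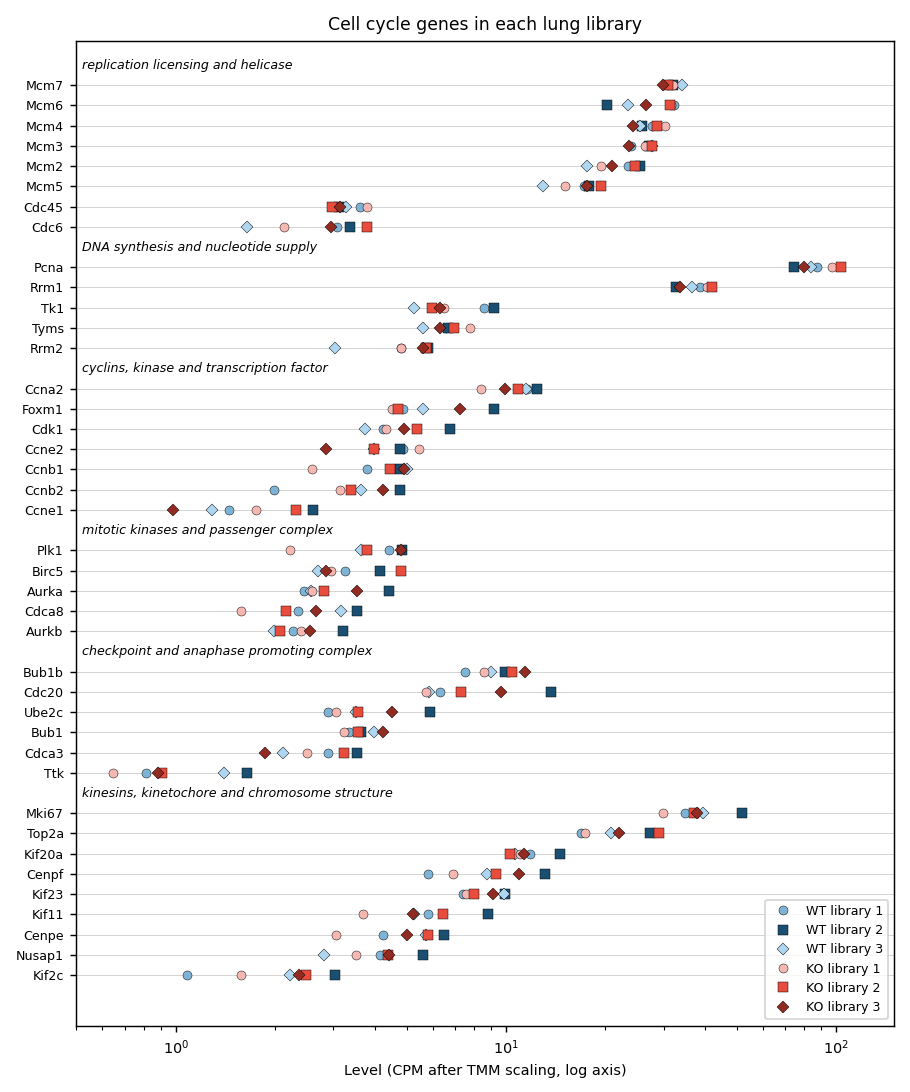
Levels of the 40 cell cycle genes (horizontal axis, CPM after TMM scaling on a log axis) in each of the 6 libraries, by role, with the genes of a role in order of their mean. Pcna lies between 74.3 and 103 CPM and Ttk between 0.647 and 1.64 CPM, and the dark blue squares of WT library 2 lie at the right end for most mitotic genes.

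In KO against WT lungs, no cell cycle gene passed the test. Of the 39 tested, 0 passed at an adjusted p of 0.05 (edgeR's quasi-likelihood test with Benjamini-Hochberg adjustment over 14802 genes, adjusted p = 0.9999 for each), against 0.00676% of all tested genes, which is Tspo alone. At an unadjusted p under 0.05 there were also 0 of 39, against 1.88% of all genes (0.446% higher and 1.43% lower in KO), and DESeq2 and limma-voom likewise gave 0 and 0. With 1 library left out this count was 0 to 3. Without WT library 1 it was 3 of 40 (Mcm6, Mki67 and Ttk), against 2.10% of all genes in that fit. Without WT library 3 it was 1 of 39 (Tk1), against 2.64%, and without KO library 3 it was 1 of 40 (Pcna), against 4.13%. In each of these fits 0 passed the adjusted threshold. The mean was higher in KO for 14 genes and lower for 25, where 50.8% of all genes were higher, and the median log2 ratio (KO over WT, from the fit) was −0.05, beside 0.00 over all genes. The log2 ratios of the 39 genes lay between −0.51 and 0.24, and their standard error (SE) was 0.25 at the median. The 95% confidence interval stayed within 2-fold of no change for 38 of them, and for 93.2% of all genes. The ranges of the genotypes were apart for 1 gene, Ccna2, against 5.46% of all genes.

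**Figure D3:**
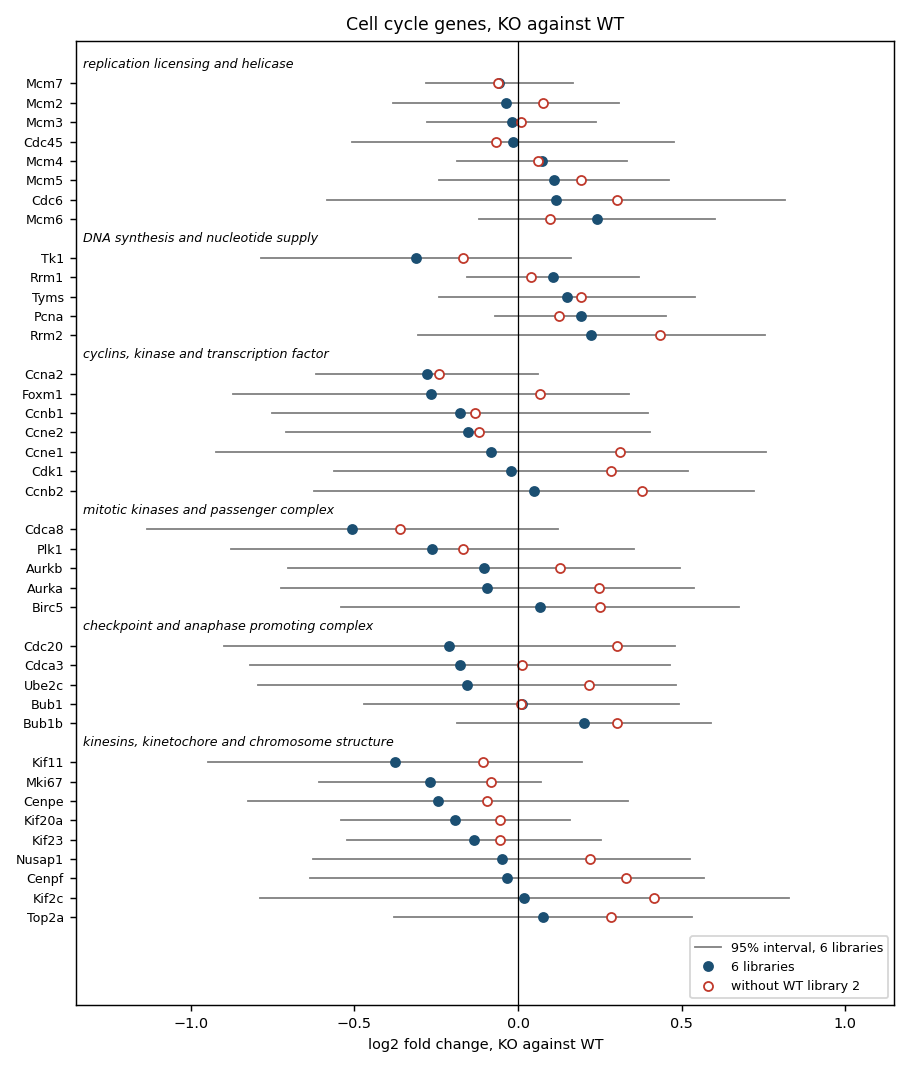
Log2 ratio of KO against WT (horizontal axis) for the 39 tested genes by role, with filled points and 95% confidence intervals from all 6 libraries and open points from the fit without WT library 2. Every interval from the 6 libraries includes 0, and for most mitotic genes the open point lies to the right of the filled one.

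The subunits of the replicative helicase had log2 ratios between −0.06 and 0.24, none past the test. Mcm7 had 30.8, 32.0 and 34.0 CPM in WT and 32.1, 31.0 and 29.8 CPM in KO, which gave a log2 ratio of −0.06 (SE 0.10). This was the narrowest spread of the family, and its groups overlapped. Mcm6 had 32.2, 20.2 and 23.4 CPM in WT and 31.7, 31.3 and 26.6 CPM in KO, which gave a log2 ratio of 0.24 (SE 0.16). Only WT libraries 2 and 3 were below the KO range, and the WT library 1 value was the highest of all. Mcm5 had 17.3, 17.8 and 13.0 CPM in WT and 15.1, 19.4 and 17.6 CPM in KO, which gave a log2 ratio of 0.11 (SE 0.16), with WT library 3 the lowest. Mcm2, Mcm3 and Mcm4 were at −0.04, −0.02 and 0.07. Cdc6, which loads the helicase, and Cdc45, which activates it, were lower in level, with 14 to 46 and 28 to 41 counts per library, and had log2 ratios of 0.12 (SE 0.32) and −0.02 (SE 0.22). Part of the transcript of Mcm7 (10.8%) and of Cdc45 (7.89%) overlaps exons of Ap4m1 and Ufd1 on the opposite strand, and the strand setting of the counts is not given in the sources used here.

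Genes of DNA synthesis and nucleotide supply were 4 higher and 1 lower in the KO mean, without passing the test. Pcna had 87.6, 74.3 and 83.9 CPM in WT and 97.3, 103 and 79.9 CPM in KO, which gave a log2 ratio of 0.19 (SE 0.12, 95% confidence interval −0.07 to 0.45). KO libraries 1 and 2 were above the WT libraries, while KO library 3 lay among them. Tk1, the thymidine kinase of S phase, had 8.59, 9.17 and 5.26 CPM in WT and 6.47, 5.96 and 6.30 CPM in KO, which gave a log2 ratio of −0.31 (SE 0.22). Its WT libraries 1 and 2 were above and WT library 3 below the KO libraries. Rrm1 and Rrm2, the subunits of ribonucleotide reductase, were at 0.11 and 0.22, and Tyms, the thymidylate synthase, at 0.15.

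Of the cyclins, their kinase and the transcription factor of the mitotic program, 6 of 7 had a lower mean in KO (median log2 ratio −0.15). Without WT library 2 these were 3 of 7, at a median of 0.07. Ccna2, which encodes cyclin A2 of S phase and G2, had 11.6, 12.4 and 11.5 CPM in WT and 8.41, 10.8 and 9.94 CPM in KO, which gave a log2 ratio of −0.28 (SE 0.15, 95% confidence interval −0.62 to 0.06). Each KO library was below each WT library, which was the case for 3.18% of all tested genes. A stretch of 17.2% of its transcript overlaps exons of Exosc9 on the opposite strand, a gene with 16.8 to 21.8 CPM. The counts of Ccna2 are therefore uncertain. Foxm1, the activator of G2 genes, had 4.88, 9.17 and 5.62 CPM in WT and 4.53, 4.72 and 7.28 CPM in KO, which gave a log2 ratio of −0.27 (SE 0.28). Its highest value was in WT library 2 and the second highest in KO library 3. Ccnb1 and Ccnb2, the cyclins of mitosis, were at −0.18 and 0.05, and their kinase gene Cdk1 at −0.02. Ccne1 and Ccne2, the cyclins of the entry into S phase, were at −0.08 and −0.15. Ccne2 shares 20.3% of its transcript with exons of Ints8 on the opposite strand. Ints8 had 32.4 to 42.3 CPM against 2.85 to 5.45 CPM of Ccne2, so the counts of Ccne2 are uncertain.

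The mitotic kinases and the chromosomal passenger complex were low in level, with 17 to 58 counts per library. Cdca8, which encodes the passenger protein borealin, had the lowest log2 ratio of the 39 tested genes, −0.51 (SE 0.29, 95% confidence interval −1.13 to 0.12). It had 2.35, 3.55 and 3.16 CPM in WT and 1.57, 2.15 and 2.66 CPM in KO, and the groups overlapped by WT library 1. It was also the single gene whose interval reached past a 2-fold change. Plk1, the Polo-like kinase, had 4.43, 4.85 and 3.63 CPM in WT and 2.22, 3.81 and 4.82 CPM in KO, which gave a log2 ratio of −0.26 (SE 0.28). KO library 1 was low for both genes. Aurka and Aurkb, the Aurora kinases, were at −0.09 and −0.10 and Birc5, which encodes survivin, at 0.07.

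Of the tested genes of the spindle checkpoint and of its target, the anaphase promoting complex, 2 had a higher and 3 a lower mean in KO (median log2 ratio −0.16). Without WT library 2, 5 were higher and 0 lower, at a median of 0.22. Bub1b, the checkpoint protein BUBR1, had 7.51, 9.95 and 9.01 CPM in WT and 8.59, 10.4 and 11.4 CPM in KO, which gave a log2 ratio of 0.20 (SE 0.18). Cdc20, the activator of the anaphase promoting complex, had 6.33, 13.7 and 5.85 CPM in WT and 5.73, 7.28 and 9.64 CPM in KO, which gave a log2 ratio of −0.21 (SE 0.31). In counts this was 158 in WT library 2 against 50 to 98 in the other libraries. Without that library the log2 ratio of Cdc20 was 0.30. Part of the transcript of Cdc20 (2.96%) overlaps exons of Elovl1 on the opposite strand, a gene with 321 to 367 CPM. Ube2c, the ubiquitin-conjugating enzyme of the same complex, was also highest in WT library 2, at 5.89 CPM against 2.89 to 4.53 CPM, with a log2 ratio of −0.16 and of 0.22 without it. Bub1 and Cdca3, a trigger of mitotic entry, were at 0.01 and −0.18.

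Kinesins, kinetochore proteins and chromosome structure genes were lower in the KO mean for 7 of 9. Mki67 had 34.7, 51.9 and 39.4 CPM in WT and 29.8, 37.1 and 37.9 CPM in KO, which gave a log2 ratio of −0.27 (SE 0.15, 95% confidence interval −0.61 to 0.07), and of −0.08 without WT library 2. Kif11, the kinesin that pushes the spindle poles apart, had 5.79, 8.83 and 5.26 CPM in WT and 3.70, 6.46 and 5.21 CPM in KO, which gave a log2 ratio of −0.38 (SE 0.26), and of −0.11 without WT library 2. In both genes WT library 2 was the highest and KO library 1 the lowest, and the other libraries of the genotypes overlapped. Top2a, the topoisomerase that untangles chromosomes, had 16.8, 27.3 and 20.8 CPM in WT and 17.4, 29.0 and 22.0 CPM in KO, so that library 2 was the highest of each genotype, at a log2 ratio of 0.08. The others were Cenpe at −0.24, Kif20a at −0.19, Kif23 at −0.13, Nusap1 at −0.05, Cenpf at −0.03 and Kif2c at 0.02. Kif20a shares 34.6% of its transcript with exons of Cdc23 on the opposite strand, which had 44.9 to 54.5 CPM against 10.3 to 14.5 CPM of Kif20a, so its counts are uncertain.

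Most of the 20 mitotic genes had their highest level in WT library 2, and most replication genes did not. The summed level of the 20 mitotic genes was 130, 199 and 145 CPM in WT and 120, 157 and 157 CPM in KO, so that WT library 2 stood 1.40 times above the mean of the other 5. The summed level of the 7 cyclin, kinase and transcription factor genes was 45.2 CPM in that library against 30.2 to 35.1 CPM. The summed level of the 13 replication genes was 308, 284 and 280 CPM in WT and 317, 334 and 281 CPM in KO, and WT library 2 was within the range of the others. By gene, 15 of the 19 tested mitotic genes had their highest level in WT library 2, against 3 of the 13 replication genes and 19.9% of all tested genes. The level in that library over the mean of the others ran from 0.99 (Bub1) to 1.96 (Cdc20) among the tested mitotic genes with a median of 1.42, and from 0.69 (Mcm6) to 1.41 (Tk1) among the replication genes with a median of 1.02. Pcna, Rrm1 and Mcm6 had their lowest level in WT library 2.

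**Figure D4:**
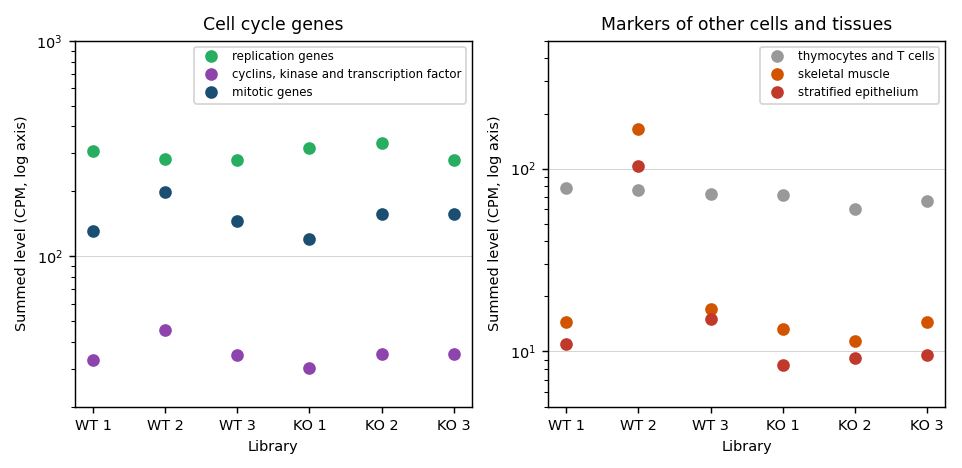
Summed levels (vertical axes, CPM on log axes) of the cell cycle genes by role, left, and of markers of other cells and tissues, right, in each of the 6 libraries. The mitotic genes reach 199 CPM in WT library 2 against 120 to 157 CPM in the others, the library in which skeletal muscle markers reach 164 CPM and stratified epithelium markers 103 CPM.

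Markers of some other tissues were also high in WT library 2. As this is 1 library, it cannot show whether these markers move together with the mitotic genes. All 4 skeletal muscle markers were highest there, with Acta1 at 1002 counts against 0 to 5 in the others. So were 3 of the 4 stratified epithelium markers, with Krt5, a keratin of the basal layer, at 17.7 CPM against 0.185 to 1.74 CPM. Krt10 was at 2.68 CPM against 2.76 to 3.62 CPM. The summed level of 3 fat markers was 134 CPM there against 50.6 to 109 CPM. Among populations that hold dividing precursors, the sum of 9 markers of thymocytes and T cells was 76.1 CPM, within the range of the others, whose highest was 78.1 CPM. Rag2 and Ptcra had 0 counts there and at most 2 in any library. Rag1 had 18 counts there against 5 to 23 in the others, and Dntt 8 against 2 to 13. The sum of 6 B cell markers was 140 CPM against 133 to 230 CPM. The 5 markers of granulocyte progenitors were near 0 and highest there, with a sum of 1.38 CPM against 0.462 to 0.995 CPM. Of these, Elane had 3 counts there and 0 in the others, Ctsg 4 counts against 0 to 2, and Ms4a3 0 in all. The 6 markers of erythroid progenitors summed to 52.2 CPM, the lowest of the 6 libraries, and Rhag was at 0 in all. The part of these tissues in the level of the mitotic genes was not tested.

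Without WT library 2 the lower mean of the mitotic genes in KO turned. For the 15 of 19 tested mitotic genes that were highest in that library, leaving it out raises the KO to WT ratio by construction. Of the 19 tested mitotic genes, 5 were higher and 14 lower in KO with all libraries (median log2 ratio −0.13), and 12 were higher and 7 lower without it, at a median of 0.13. For all 39 genes the counts went from 14 higher and 25 lower to 26 higher and 13 lower. The replication genes were higher in KO in both fits, 8 of 13 at a median of 0.11 and 10 of 13 at 0.08. In both fits 0 genes passed the test and 0 had an unadjusted p under 0.05 (edgeR's quasi-likelihood test), and the median over all genes was 0.00. Leaving out WT library 3 instead gave medians of −0.22 for the mitotic and 0.03 for the replication genes.

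The spread of the cell cycle genes within a genotype was measured relative to counting noise. The chi-square per degree of freedom within genotypes, which is 1 for pure sampling, had a median of 2.72 over the tested genes of the list. Over all tested genes it was 3.30, at a median level of 25.8 CPM against 5.87 CPM for the list. At equal relative variation this measure rises with the counts, so it does not compare genes of unlike level. The median SE of the log2 ratio was 0.25 for the list and 0.14 for all tested genes. The largest values were 15.7 for Top2a, 14.4 for Cdc20, 13.5 for Mki67, 11.6 for Pcna and 10.7 for Cenpf. The smallest were 0.42 for Cdc45, 0.50 for Bub1 and 0.62 for Mcm7.

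Other genes of the pathway did not pass the test either. Of 40 tested other replication genes, among them the origin recognition complex, GINS and DNA polymerases, 30 were higher and 10 lower in KO with a median log2 ratio of 0.05, and 0 passed. Without WT library 2 these were 23 higher and 17 lower. The smallest p was that of Gins4, a subunit of the replicative helicase, with 23.8, 22.5 and 23.3 CPM in WT and 27.5, 29.2 and 24.99 CPM in KO, which gave a log2 ratio of 0.23 (SE 0.11). Each KO library was above each WT library, as for 2.28% of all tested genes. Pold1 and Pole2, subunits of DNA polymerases delta and epsilon, were at −0.20 and 0.36.

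Of 42 tested other mitosis genes, 17 were higher and 25 lower in KO, at a median of −0.06, and 0 passed. Without WT library 2 they were 25 higher and 17 lower at a median of 0.05. Of these genes 18 were highest in WT library 2, but the summed level of the whole list of 44 was 440 CPM there against 410 to 437 CPM, 1.04 times the mean of the others. At an unadjusted p under 0.05 there was 1 of 42, beside 1.88% of all genes, namely Trip13, an ATPase that remodels the checkpoint complex, with 1.99, 1.64 and 1.64 CPM in WT and 1.02, 0.993 and 1.18 CPM in KO, which gave a log2 ratio of −0.73 (SE 0.30). Its groups did not overlap, with KO lower, as for 3.18% of all tested genes. The adjusted p of Trip13 over all genes was 0.9999 by edgeR's quasi-likelihood test. Kif4, a chromosome-bound kinesin, had 4.25, 4.50 and 4.21 CPM in WT and 6.28, 5.79 and 5.02 CPM in KO, which gave a log2 ratio of 0.40 (SE 0.19). Every KO library of Kif4 was above the WT libraries, as for 2.28% of all tested genes. Ncapd2, a subunit of condensin, was at −0.31 (SE 0.18).

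Of 27 genes of G1 cyclins, their kinases and the Rb and E2F families, 14 were higher and 13 lower in KO at a median of 0.01, and 0 passed. Rbl1, which encodes the pocket protein p107, had 19.8, 21.7 and 19.3 CPM in WT and 16.4, 17.3 and 17.2 CPM in KO, which gave a log2 ratio of −0.26 (SE 0.12). Its groups did not overlap, with KO lower, as for 3.18% of all tested genes. E2f8, a repressor of the E2F family, was at −0.60 (SE 0.31) with 1.87 to 2.94 CPM in WT and 1.29 to 1.87 CPM in KO, and Rb1, the retinoblastoma gene, at −0.18. Of 20 inhibitors and growth arrest genes, 9 were higher and 11 lower at a median of −0.05, and 0 passed. Cdkn1a, the inhibitor p21, had 69.2, 125 and 104 CPM in WT and 148, 129 and 103 CPM in KO, which gave a log2 ratio of 0.35 (SE 0.19), with WT library 1 low and the other libraries of the genotypes overlapping. Wee1, the kinase that holds back CDK1, was at 0.26 and Cdkn2b, the inhibitor p15, at −0.14. The inhibitors were the better expressed of these lists, at a median percentile of 76.9 per kilobase against 47.6 for the G1 list, 29.6 for the other replication genes and 14.6 for the other mitosis genes.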

How the data were processed

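The authors sequenced lung RNA of WT and KO mice with paired ends (Illumina HiSeq). Reads that passed their quality filter were mapped to mm10. TopHat is named in the submitters' processing notes. The deposited values are raw counts per transcript, not normalized, for 31176 RefSeq transcripts and 33353 FANTOM3 clones. Which program counted the reads, with which annotation and strand setting, and how reads shared between transcripts were treated, is not given in the sources used here.

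Each gene was represented by its RefSeq transcript with the largest total (23473 genes). Spreadsheet dates had replaced 49 gene names, of which 48 were restored by accession. FANTOM3 clones carry no gene name and were not assigned to genes. After filterByExpr (minimum count 10, minimum total 15), 14802 genes were tested with TMM scaling and no block by edgeR 4.0.16 (quasi-likelihood test) in R 4.3.3. P-values were adjusted by Benjamini-Hochberg over these genes, at a threshold of 0.05. The standard error is the log2 ratio divided by the square root of its F statistic. The pipeline was tested on simulated data. Alternatives used DESeq2 1.42.0, limma 3.58.1 (voom), RLE or no composition scaling, other filters, a threshold of 0.1, a block by replicate number, each library left out, summed transcripts, single entries, and totals without the 20 most abundant genes, which include Rn45s and Lars2. The 40 genes and all lists were chosen with earlier results of these data known. Genes given with every library were, in each role, the 2 with the smallest p and the one with the highest mean. Top2a, Ube2c and Ttk were added after their values were seen. In the other lists, up to 3 genes with the smallest p are named.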

Additional observations from a re-analysis of the deposited data

How the results depend on the processing

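No cell cycle gene passed the test under any of the 15 alternative fits or at a threshold of 0.1, and none of the genes in the 4 other pathway lists did. Over all genes the count stayed at 1, except for 2 without WT library 1, and ranged from 1 to 2 over the libraries left out. The median log2 ratio with each library left out ran from −0.17 to 0.08 for all tested cell cycle genes, from 0.03 to 0.17 for the replication genes and from −0.26 to 0.13 for the mitotic genes, whose value of 0.13 without WT library 2 was the only one that moved by more than the spread between libraries. The highest summed level stayed in WT library 2 for the mitotic genes (1.14 to 1.44 times the mean of the others over the libraries left out, with KO library 2 the highest at 1.14 once WT library 2 was left out) and in KO library 2 for the replication genes (1.10 to 1.16, with KO library 1 the highest at 1.10 once KO library 2 was left out).

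Of the 39 tested genes, 17 kept the direction of their log2 ratio under every alternative. With no library left out, the direction changed for Mcm3 (0.020), Cdc45 (0.018), Cdk1 (0.0063) and Cenpf (0.0068) with no composition scaling, for Cdk1 (0.0077) and Cenpf (0.018) with limma-voom, for Cdk1 (0.0067) and Cenpf (0.0047) with the replicate block, and for the other transcript of Cdc45 (0.017). With each library left out in turn, values that crossed 0 were Mcm2 −0.17 to 0.076, Mcm3 −0.084 to 0.042, Mcm5 −0.0065 to 0.20, Cdc6 −0.11 to 0.31, Cdc45 −0.13 to 0.058, Ccne1 −0.39 to 0.31, Ccne2 −0.41 to 0.043, Ccnb1 −0.34 to 0.052, Ccnb2 −0.24 to 0.38, Cdk1 −0.17 to 0.28, Foxm1 −0.51 to 0.068, Aurka −0.26 to 0.25, Aurkb −0.22 to 0.13, Birc5 −0.22 to 0.25, Bub1 −0.098 to 0.091, Cdc20 −0.42 to 0.30, Ube2c −0.36 to 0.22, Cdca3 −0.39 to 0.013, Kif2c −0.31 to 0.41, Cenpf −0.29 to 0.33, Nusap1 −0.25 to 0.22 and Top2a −0.14 to 0.29. The cause was not tested.

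The replicate block left the count of cell cycle genes past the threshold at 0 and their median at −0.03. Deviations of libraries with the same number had correlations across genes of 0.16, −0.27 and −0.31 for numbers 1, 2 and 3. Those of unlike number ran from −0.26 to 0.44, with the highest for WT library 2 and KO library 3. The test of FANTOM3 clones by gene was not run, as the clones carry no gene name. Among the mitotic genes of lowest depth, Ttk (7 to 19 counts per library) had no test with all 6 libraries and the filter, Kif2c (12 to 35 counts) had a standard error of 0.37 and Cdca8 (17 to 41 counts) of 0.29, so small differences of these genes were not detectable at this depth.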
